A study of Mus musculus with 10 samples.

Results

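The expression of the lymph node leukemias of 3 Ebf1+/- Pax5+/- (dHet) mice was compared with that of wild-type (wt) pro-B cells sorted from bone marrow. The members of the comparison were taken by their labels, although earlier results of these data were known. They were 2 arrays each of dHet-B-ALL-686, dHet-B-ALL-713 and dHet-B-ALL-760, and 2 arrays of wt-proB. These are 8 of the 10 arrays of the study. The 2 arrays of each leukemia were averaged, so the comparison was between 3 leukemic mice and 2 wt arrays. The remaining 2 arrays, of cultured dHet pro-B cells, added to the estimate of the spread and to the choice of probes, and are not described here.

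RNA from each sample was hybridised to an Agilent oligonucleotide array with a single dye. The leukemic mice carried 1 intact copy each of Ebf1 and of Pax5, and their cells were taken from the lymph node. The labels do not state whether the leukemic cells were sorted. The wt cells were Ebf1+/+ Pax5+/+ bone marrow cells sorted as Fraction BC, the stage at which B cell progenitors rearrange their heavy chain genes. Genotype, malignancy, tissue of origin and array slide all differ between the groups, sorting may differ, and their parts in any difference cannot be told apart. Scan day differs for some of the leukemia arrays, as described below. Strain, age, sex and the nature of the 2 replicates of a group are not given in the sources used here, so p-values involving wt cells may measure technical spread. In such bulk samples fewer cells of a type and less RNA per cell cannot be told apart.

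Ebf1 and Pax5 encode transcription factors that together establish the B lineage programme, and mice that lack a copy of both develop B cell precursor acute lymphoblastic leukemia (B-ALL). Pro-B cells alternate between bursts of division driven by the interleukin 7 receptor and pauses in which recombination proceeds, and signals from the pre-B cell receptor (pre-BCR) end that stage. In such pauses FOXO factors, Ikaros-family factors and inhibitors of cyclin-dependent kinases hold growth back. Ribosome production, mitochondrial activity and protein folding rise in lymphoid cells that re-enter the cell cycle.

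Of 14455 genes tested with limma, 4518 were higher and 3974 lower in the leukemias at a Benjamini-Hochberg adjusted p under 0.05. So 58.7% of all genes passed, 31.3% as higher and 27.5% as lower, and these shares are the background against which the counts of each gene list are to be read. The change was at least 2-fold in every mouse for 2010 of the higher and 2340 of the lower genes. The median change over all genes was 0.06 on the log2 scale. The split between directions depended on how arrays were scaled to each other. Centring on each array's median gave 6369 higher and 2282 lower genes, with a median change of 0.63, whereas the 75th percentile of the probes detected on all arrays gave 2959 higher and 5482 lower, with a median of -0.30. Changes below are therefore relative to each array's 75th percentile. A level is the log2 processed signal minus that percentile. Where 3 levels are set against 2, they are the means of leukemias 686, 713 and 760 in that order and the readings of wt replicates 1 and 2. A change is the difference in log2 level between the mean of the 3 leukemias and that of the 2 wt arrays, and SE is limma's standard error of it.

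The marker genes of the early B lineage were present in both groups. All 18 were well above background on both wt arrays, and 16 of 18 were on all 6 leukemia arrays, the exceptions being Pax5, seen on 2 of 6, and Rag2, seen on 5 of 6. Their summed linear level was 1544 to 2282 in the leukemias and 2341 to 2374 in the wt cells. Of the 18, 3 were higher and 10 lower in the leukemias. Ebf1 stood at 1.82, 2.06 and 2.10 in leukemias 686, 713 and 760 and at 3.11 and 2.99 on the wt arrays, which is lower in every leukemia. Pax5 stood at -5.08, -2.91 and -5.62 against -0.30 and -0.67, and fell by 2.97 on the log2 scale when its undetected arrays were set to the dimmest level above background. Where the probes of the 2 genes lie relative to the targeted exons is not stated, so they do not check the genotype.

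Markers of several other cell types differed between the groups. Of 13 markers of mature and plasma B cells tested, 7 were lower in the leukemias, with a summed level of 44.2 to 70.4 against 160 to 168. Of 9 neutrophil markers, 7 were lower, at 0.37 to 29.2 against 65.6 to 133.9. Of 12 T cell markers, 6 were higher, at 12.9 to 63.0 against 3.88 to 4.23, and Cd3e was seen on 2 of 6 leukemia arrays and on no wt array. Of 7 NK markers 1 was higher, at 7.77 to 42.8 against 2.63 to 3.05, and of 11 macrophage markers 3 were, at 13.9 to 104 against 14.7 to 23. Of 5 stromal markers 3 were higher, at 0.34 to 2.73 against 0.15 to 0.18. However, 0 of the 5 were detected on all 6 leukemia arrays, and 4 were detected on no wt array. With the replicate 2 leukemia arrays alone 1 was higher. Of 5 endothelial markers 1 was higher and 2 were lower, with a median change of -1.41, although their sum was 17.6 to 106 against 6.42 to 7.13. Of 7 erythroid and megakaryocyte markers 0 passed by limma after adjustment and 2 at an unadjusted p under 0.05, with sums of 1.94 to 157 against 2.26 to 3.22. The part of such cells in the changes below was not tested.

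The leukemia arrays had been scanned on separate days: all replicate 1 arrays on the first day from 1 slide, all replicate 2 arrays on the second day from another. The wt arrays were scanned on the second day from yet another slide, which also held the arrays of cultured dHet pro-B cells. Of 9794 genes detected on all 6 leukemia arrays, 221 differed at least 2-fold between the replicates in the same direction in all 3 mice, 154 of them higher on replicate 2 arrays. Lars2, the mitochondrial leucyl-tRNA synthetase gene, was the widest case. It read 2.70, 2.89 and 2.98 on the replicate 1 arrays of leukemias 686, 713 and 760, 8.42, 8.78 and 7.90 on their replicate 2 arrays, and 10.06 and 10.28 on the wt arrays. Its change was -7.31 with replicate 1 and -1.80 with replicate 2, and the fit of mouse means, -4.56 ± 0.20, lay between them with a small error. Actb, the beta-actin gene often used as a reference, changed by -4.46 and -0.57, and Klf2, a FOXO target that holds lymphocytes quiescent, by -4.04 and -0.23. Both were called lower over all arrays, and neither passed when the leukemias' second-day arrays alone were compared with the wt arrays. A further probe of Klf2 was also lower over all arrays.

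That second-day comparison was run for every gene, and called 28.2% of genes higher and 27% lower. Of the 4518 genes called higher, 3762 were higher there too and 756 did not pass. Of the 3974 called lower, 3442 were lower, 527 did not pass and 5 were higher. The arrays of the second-day comparison also entered the full one, so such agreement is partly built in. Among 5620 called genes detected on all 8 arrays, 160 had a second-day change more than 1.5 times away from the change over all arrays. The latter averages both scan days, so the gap between the days themselves is wider than that. Most gene lists below are given with their second-day counts.

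**Figure D1:**
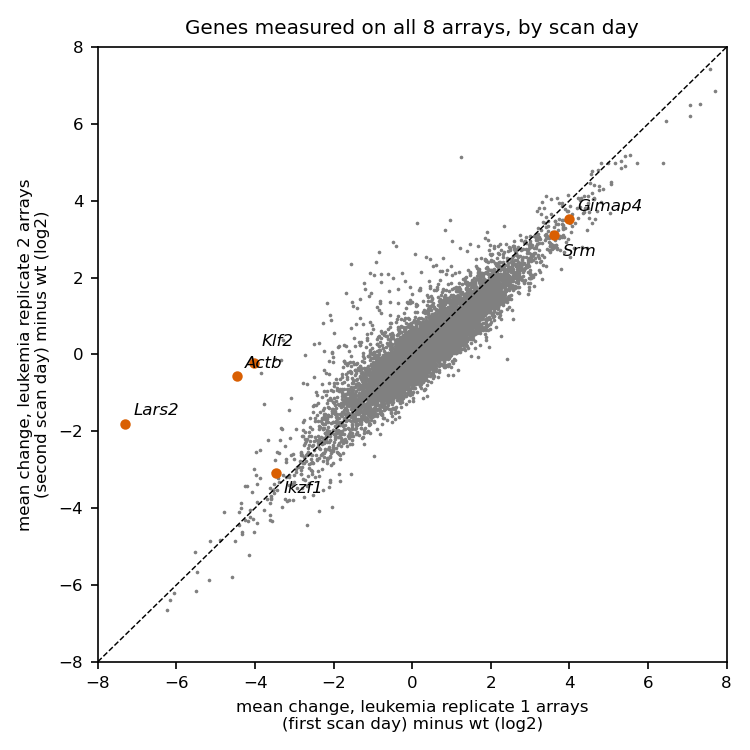
Mean change from the wt arrays on the leukemias' replicate 1 arrays (x axis, first scan day) and replicate 2 arrays (y axis, second scan day), log2 scale, for the genes well above background on all 8 arrays (grey points), with 6 genes marked and the line of equal change dashed. Most genes lie along the line, whereas Lars2, Actb and Klf2 read far lower on the first day's arrays.

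Genes of protein synthesis were higher in the leukemias. Of 23 cytosolic aminoacyl-tRNA synthetases, which charge tRNAs with amino acids, 21 rose and the other 2 did not pass, with a median change of 1.34. Of 45 initiation and elongation factors 38 rose and the other 7 did not pass (median 0.85). Of 80 mitochondrial ribosomal proteins 70 rose and 1 fell (median 0.87), while of 79 cytosolic ribosomal proteins 42 rose and 4 fell (median 0.48, or 0.11 when scaled to the detected probes). The second-day arrays gave 19, 34, 64 and 44 higher genes in the same 4 lists. Leukemia 713 was the highest of the 3 mice in 60 of the 79 cytosolic ribosomal protein genes, against 37.7% of all genes. By limma's F test among the leukemias 0 of the 79 passed after adjustment and 0 at an unadjusted p under 0.05, against 16.3% of all genes after adjustment. With scan day as a block 1 passed, against 36.8%.

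Among the elongation genes, Eif5a, whose product carries hypusine and relieves stalled ribosomes, stood at 7.24, 6.98 and 7.29 in the 3 leukemias and 5.20 and 5.06 in wt cells. It rose by 2.04 ± 0.14 (SE) on the log2 scale, with a limma adjusted p of 0.00035. Gspt1, the release factor that ends translation at stop codons, stood at 3.22, 2.71 and 3.27 against 0.58 and 0.56. Every leukemia lay well above both wt arrays for these genes. Mrpl12, a mitochondrial ribosomal protein, stood at 5.64, 5.51 and 5.69 against 3.02 and 3.27, and Rpl3, of the large cytosolic subunit, at 7.97, 7.96 and 8.15 against 6.40 and 6.40. The changes were 2.49 ± 0.20 for Gspt1, 2.47 ± 0.14 for Mrpl12 and 1.63 ± 0.12 for Rpl3. Kars, the lysyl-tRNA synthetase, rose by 1.69 ± 0.14.

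The 34 subunits of RNA polymerases I and III, which transcribe ribosomal RNA and small RNAs, split into 13 higher and 4 lower, and the sign of their median (0.28) turned to -0.09 when scaled to the detected probes. Polr1b, the second largest subunit of polymerase I, stood at 3.45, 2.22 and 2.86 against -0.19 and -0.33, a rise of 3.10 ± 0.35 (SE). Cd3eap, another polymerase I subunit despite its name, rose by 2.36 ± 0.19. Of 17 polyamine genes 8 rose and 1 fell. Mtap, which returns the methylthio group of spent polyamine precursors to methionine, stood at 1.0, 1.06 and 1.41 against -2.18 and -2.11 and rose by 3.30 ± 0.16. The single fall was Sat1, which acetylates polyamines for export. It stood at -0.59, 0.52 and -0.64 against 1.17 and 1.23, nearest to wt in leukemia 713, and changed by -1.44 ± 0.37.

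Of 19 amino acid transporters 9 rose and 6 fell. Slc7a5, the light chain of the large neutral amino acid carrier, stood at 0.58, 0.19 and 0.35 against -2.96 and -3.03, a rise of 3.36 ± 0.37 (SE). Slc7a1, the arginine and lysine carrier, rose by 2.08 ± 0.16. In the opposite direction, Slc38a9, the lysosomal arginine sensor upstream of mTORC1, stood at -0.54, -0.11 and -0.29 against 2.36 and 2.31 and changed by -2.65 ± 0.16. Slc1a5, a glutamine carrier, changed by -1.15 ± 0.15. The transporters thus did not move as 1 group.

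Mitochondrial genes showed a similar shift. Of 76 subunits of oxidative phosphorylation 62 rose and the other 14 did not pass (median 0.77). Of 28 genes of the tricarboxylic acid cycle and its feeders 22 rose and the other 6 did not pass (0.95). Of 38 genes of mitochondrial import and chaperones 31 rose and 1 fell (1.21). On the second-day arrays 56, 18 and 26 of these were higher. The import list contained Hspd1, the matrix chaperonin, at 6.96, 6.50 and 6.78 against 4.31 and 4.40, and Chchd4, the receptor that folds proteins of the intermembrane space, at 2.74, 2.18 and 2.38 against -0.31 and -0.08. Their changes were 2.39 ± 0.17 and 2.63 ± 0.20 (SE). Atp5g1, a c subunit of ATP synthase, rose by 1.92 ± 0.14, Idh3a, of the cycle's NAD-linked isocitrate dehydrogenase, by 2.20 ± 0.15, and Got2, which exchanges amino groups between aspartate and glutamate, by 1.91 ± 0.12.

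Protein turnover and nuclear traffic followed. Of 47 proteasome genes 44 rose and 1 fell (median 0.93), of 37 cytosolic chaperones 27 rose and 2 fell (1.11), and of 53 nuclear transport genes 46 rose and 1 fell (1.12). The second-day arrays gave 40, 27 and 42 higher. Psmg1, which helps assemble the proteasome core, stood at 2.61, 1.85 and 2.49 against -0.04 and 0.12. The proteasome gene that fell was Psme4, an activator cap of the core linked to histone degradation, at 4.16, 4.10 and 4.15 against 5.43 and 5.33. Its 4 probes all passed in that direction.

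Among the chaperones, Bag3, a co-chaperone of HSP70 in selective autophagy, rose by 3.59 ± 0.48 (SE), with levels of 1.04, 1.18 and -0.39 against -2.93 and -3.02. Hsp90ab1, the constitutive HSP90, rose by 2.19 ± 0.17. Hspa1a, the stress-inducible HSP70, went the other way. Of the 6 leukemia arrays 2 detected it, as did both wt arrays, at -3.52, -5.17 and -4.41 against -0.52 and -0.44, and the gene changed by -3.18 with its undetected arrays at the dimmest level above background. Kpna2, an importin that carries cargo into the nucleus, rose by 2.72 ± 0.21, and Nup37, of the Y-shaped nuclear pore subcomplex, by 2.98 ± 0.19. The exportin Xpo6, which removes actin from the nucleus, changed by -0.92 ± 0.12. Of 53 splicing factors 30 rose and 5 fell (median 0.49), and Clk1, a kinase of splicing factors, changed by -1.68 ± 0.17.

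Promoter sequences were read for these genes because MYC, with its partner MAX, binds the E-box CACGTG. The sequences came from RefSeq (GRCm38.p6) and covered 250 bases before to 50 after the gene start. A promoter was matched to 9748 of 14455 genes (67.4%), too few for a comparison of all called genes, which is void. The E-box, searched as CACGTG, which reads the same on both strands, was present in 11.6% of the 9748. Among lists with over 80% of genes matched, it was present in 9 of 43 nuclear transport promoters (20.9%), 7 of 34 mitochondrial import promoters (20.6%) and 6 of 29 promoters of FOXO and quiescence genes (20.7%). It was present in 5 of 70 mitochondrial ribosomal protein promoters (7.14%), 6 of 64 oxidative phosphorylation promoters (9.38%) and 3 of 40 lymphoid transcription factor promoters (7.5%). Lists that mostly rose and lists that mostly fell both included shares above and below that of all matched genes. Stretches before the gene start from 3 genes that rose and 3 that fell are printed as examples of the letters on both sides, with the E-box in capitals.

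Hspd1 (chr1:55088258-55088383, - strand): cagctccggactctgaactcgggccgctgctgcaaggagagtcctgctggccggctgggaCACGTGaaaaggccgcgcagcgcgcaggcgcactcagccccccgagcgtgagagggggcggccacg
Nup93 (chr8:94214329-94214454, + strand): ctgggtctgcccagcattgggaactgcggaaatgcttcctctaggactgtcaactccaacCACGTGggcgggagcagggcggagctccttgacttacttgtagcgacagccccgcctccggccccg
Xpot (chr10:121626498-121626582, - strand): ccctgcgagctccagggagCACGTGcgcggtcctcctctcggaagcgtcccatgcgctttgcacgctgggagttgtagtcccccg
Bcl6 (chr16:23988853-23988972, - strand): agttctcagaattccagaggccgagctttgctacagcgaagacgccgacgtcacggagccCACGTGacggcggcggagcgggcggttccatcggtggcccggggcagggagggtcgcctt
Klf4 (chr4:55532592-55532717, - strand): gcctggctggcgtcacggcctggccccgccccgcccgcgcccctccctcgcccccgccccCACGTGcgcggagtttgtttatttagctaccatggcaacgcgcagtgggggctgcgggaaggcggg
Lef1 (chr3:131156155-131156280, + strand): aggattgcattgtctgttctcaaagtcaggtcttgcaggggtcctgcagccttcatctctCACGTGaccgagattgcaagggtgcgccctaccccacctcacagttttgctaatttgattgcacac

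The first 3 belong to genes that rose, by 2.39 ± 0.17 for Hspd1, 1.92 ± 0.14 for Nup93, a scaffold of the nuclear pore, and 1.80 ± 0.22 for Xpot, the exportin of tRNA. The other 3 belong to genes that fell: Bcl6 changed by -2.46 ± 0.15, Klf4 by -3.55 ± 0.31 and Lef1 by -1.91 ± 0.54. A match of letters is not a bound site.

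Genes of replication and mitosis were higher. Of 49 genes of replication licensing and the fork 43 rose and the other 6 did not pass (median 1.19), and of 55 kinetochore and spindle genes 49 rose and the other 6 did not pass (1.35). Of 40 genes of homologous recombination and the Fanconi pathway 29 rose and 4 fell (0.84). The second-day arrays gave 42, 49 and 28 higher. Orc6, of the complex that marks origins, rose by 1.73 ± 0.24, and Pole2, of the leading strand polymerase, by 1.81 ± 0.21. Plk1, a kinase that drives mitotic entry, stood at 5.19, 5.18 and 4.88 against 2.38 and 3.04. Bub1b, of the spindle checkpoint, rose by 2.21 ± 0.21.

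Dna2, a nuclease-helicase that processes flaps and broken ends, stood at 1.69, 1.19 and 1.57 against -1.62 and -1.32, a rise of 2.95 ± 0.20 (SE). Chek1, the kinase that restrains origins under replication stress, rose by 2.22 ± 0.33. Rad52, an annealing factor, was among the 4 that fell, at -0.12, 0.23 and 0.25 against 1.12 and 1.12. Leukemia 713 was the highest mouse in 3 of the 49 replication genes and 4 of the 40 recombination genes, against 37.7% of all genes, and 2 and 4 of these genes differed among the leukemias by the F test. The median rise of the replication list was 0.90 in that leukemia, 1.34 in 686 and 1.33 in 760.

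The 38 cyclins, cyclin-dependent kinases (CDKs) and inhibitors split into 20 higher and 6 lower. Of the 3 D cyclins 2 passed. Ccnd1 stood at 2.71, 2.57 and 1.69 in the leukemias and -1.27 and -1.20 in wt cells. Ccnd2 stood at 4.58, 4.57 and 6.27 against 3.17 and 3.15, highest in leukemia 760. Ccnd3 stood at 4.31, 5.09 and 4.74 against 5.07 and 5.32 and did not pass (adjusted p = 0.14 by limma). The kinases partnered by D cyclins were both higher: Cdk4 stood at 4.76, 4.33 and 4.81 against 2.02 and 2.14 and Cdk6 at 5.42, 4.39 and 6.13 against 2.99 and 3.10. The other 2 probes of Cdk6 changed by 0.93 and 0.92 and did not pass.

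Several brakes on the cycle were lower. Cdkn1b, the p27 inhibitor, stood at 1.23, 1.45 and 1.39 against 3.26 and 3.18, a change of -1.86 ± 0.13 (SE) that its 2 other probes shared. Cdkn1c, the p57 inhibitor, was seen on 1 of 6 leukemia arrays and both wt arrays, and changed by -2.04 with undetected arrays at the dimmest level above background. Rb1, which holds E2F factors in check, changed by -1.97 ± 0.20. E2f2, an E2F factor itself, stood at 3.82, 4.73 and 3.55 against 7.06 and 6.95, nearest to wt in 713. H1f2, a replication-linked linker histone, stood at -0.94, -0.77 and -0.37 against 4.57 and 4.06 and changed by -5.01 ± 0.24, against the direction of the replication genes.

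**Figure D2:**
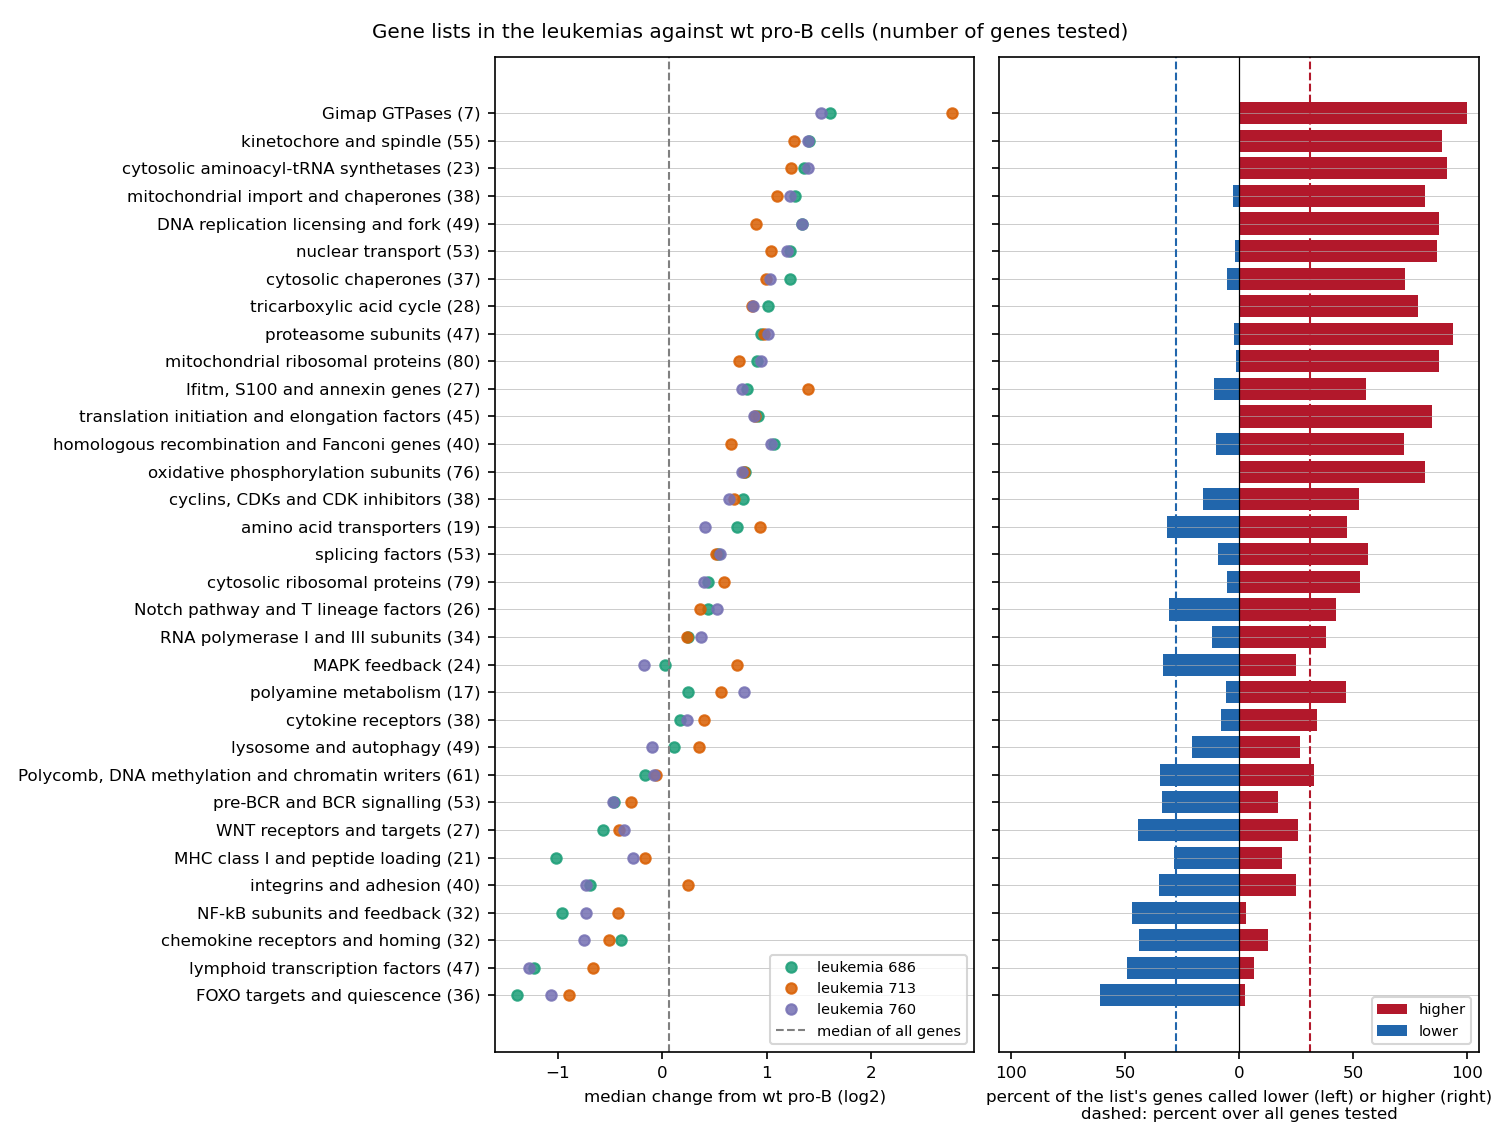
Left, median log2 change from the wt arrays of each gene list in leukemias 686, 713 and 760 (points), with the median of all genes dashed. Right, percent of each list's tested genes called higher (red) or lower (blue), with the percent over all 14455 genes dashed (31.3% and 27.5%). Lists of translation, mitochondria, proteasome and cell division lie to the right, and lists of lymphoid transcription factors, quiescence and NF-kB to the left.

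Lymphoid transcription factors were lower. Of 47 tested 3 rose and 23 fell, with a median change of -1.05 (-0.49 when centred on array medians), and the second-day arrays gave 3 and 25. The Ikaros family held large falls. Ikzf1, which encodes Ikaros, a repressor of proliferation genes in B cell precursors, read 0.88, 1.36, 1.08, 1.15, 0.91 and 1.55 on the 6 leukemia arrays (686, 713 and 760, replicates 1 and 2 of each in turn) and 4.37 and 4.49 on the wt arrays. All 6 leukemia arrays lay close together and far below both wt arrays, and the change was -3.28 ± 0.12 (SE) with a limma adjusted p of 0.00016. The array's only kept probe for the gene is printed because the fall rests on it: chr11:11658319-11661278 of mm9.

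Ikzf1: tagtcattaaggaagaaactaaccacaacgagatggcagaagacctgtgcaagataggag

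The 60 bases of the probe were placed over a span of 2960 bases, so it joins sequence of at least a pair of exons and reads spliced transcripts that hold both. Ikzf3, encoding Aiolos, stood at -3.21, 1.28 and -2.54 against 4.04 and 4.07 and changed by -5.55 ± 1.31. It was lower in every leukemia, and far less so in 713, and the 3 leukemias differed (limma F test over arrays, adjusted p = 0.0018).

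Bach2, a repressor that guards the pre-BCR checkpoint, read 3.09, 1.84, 3.57, 3.02, 3.37 and 3.06 on the leukemia arrays in the same order and 7.07 and 6.85 on the wt arrays, a change of -3.97 ± 0.29 (SE). Bcl6, which protects pre-B cells from DNA damage signals, stood at 0.26, 0.32 and 0.50 against 2.80 and 2.83. Spib, an ETS factor of the B lineage, stood at 3.54, 4.92 and 3.88 against 7.18 and 7.08. These 3 were lower in each leukemia than on either wt array. Lef1, a partner of beta-catenin, stood at 1.05, 1.60 and 2.96 against 3.76 and 3.81, with leukemia 760 nearest to wt. Foxo1, required for recombinase expression, changed by -1.38 ± 0.34.

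The 3 factors that rose included Stat5a, the effector of interleukin 7, at 1.98, 2.0 and 2.27 against 0.97 and 0.76, and Bcl11a, needed for B lineage entry, at 4.78, 4.95 and 4.39 against 3.71 and 3.52. Their changes were 1.22 ± 0.15 and 1.09 ± 0.20 (SE). For Irf8, a factor of B and myeloid fate, the mice differed (F test adjusted p = 0.003): it stood at 2.53, 6.03 and 2.95 against 5.82 and 5.71. Leukemia 713 was at the wt level and the other two were far below, and the group change did not pass (adjusted p = 0.16 by limma). Tcf3, encoding E2A, showed the same order at 2.99, 4.54 and 3.46 against 4.83 and 4.57, and did not pass (adjusted p = 0.093 by limma).

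Of the 53 genes of pre-BCR and BCR signalling 9 were higher (17.0%, against 31.3% of all genes) and 18 lower (34.0%, against 27.5%). The other 26 did not pass. The sign of the list's median (-0.35) turned to 0.21 when centred on array medians. Some components near the receptor were among the 18. Cd72, an inhibitory co-receptor, stood at -0.33, -0.36 and 1.75 against 5.97 and 5.87, a change of -5.57 ± 0.66 (SE). Syk, the kinase that starts pre-BCR signalling, stood at 3.23, 4.15 and 3.23 against 5.55 and 5.40, and Lyn, a SRC kinase that both starts and restrains it, at 2.98, 4.05 and 2.52 against 4.46 and 4.58. Blnk, the adaptor that joins SYK to calcium signalling and suppresses leukemia in mice, changed by -0.86 ± 0.22. Btk, which acts beside it, stood at 3.86, 4.28 and 3.88 against 3.77 and 3.79 and did not pass.

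Several links to RAS and PI3 kinase moved in opposite directions. Rasgrp1, a RAS activator, stood at -0.05, -0.19 and -0.28 against 2.33 and 2.02, a change of -2.35 ± 0.15 (SE). Sos1, another RAS activator, stood at 1.44, 1.79 and 1.59 against -1.54 and -1.49, a change of 3.12 ± 0.16. Pik3ap1, the adaptor BCAP, changed by -2.24 ± 0.45. Dok2, an adaptor that dampens RAS signalling, stood at 4.99, 4.69 and 4.44 against -0.60 and -0.34 and changed by 5.18 ± 0.20 with an adjusted p of 0.00016 by limma. Lck, the SRC kinase of T cells, rose by 2.60 ± 0.50 and was highest in leukemia 760. Vav3, an exchange factor for RAC, rose by 1.87 ± 0.19. Cblb, a ubiquitin ligase that ends receptor signals, was seen on 3 of 6 leukemia arrays, and fell by 3.10 with the others at the dimmest level above background.

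**Figure D3:**
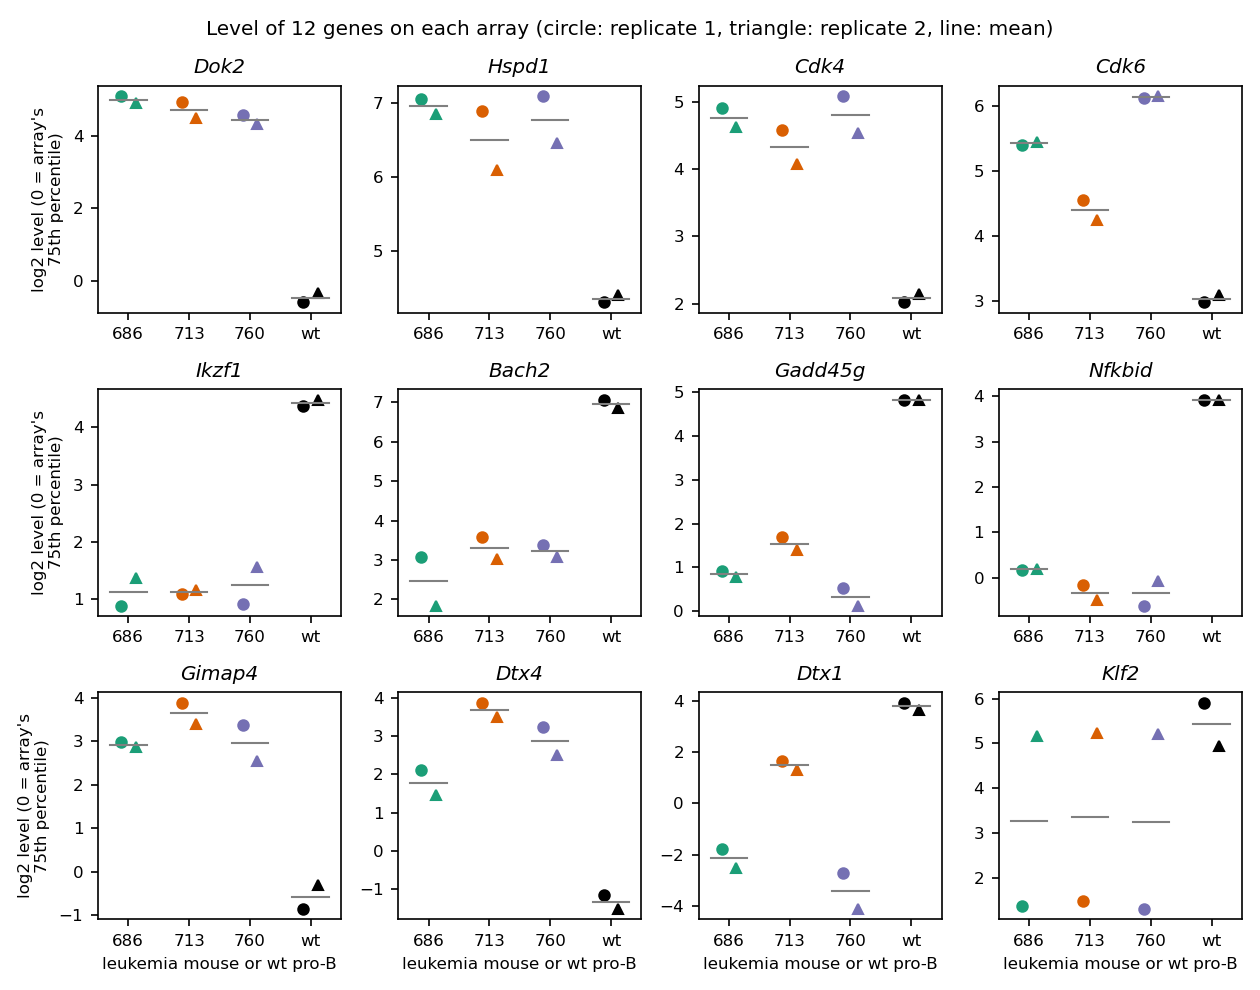
Log2 level on each array (y axis, 0 is the array's 75th percentile) of 12 genes in leukemias 686, 713 and 760 and in wt pro-B cells (circles replicate 1, triangles replicate 2, lines the mean of both). The leukemias lie above wt for Dok2, Hspd1, Cdk4, Cdk6, Gimap4 and Dtx4 and below it for Ikzf1, Bach2, Gadd45g, Nfkbid and Dtx1, while for Klf2 only the replicate 1 arrays lie clearly below.

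Genes of quiescence and FOXO targets showed the lowest median of the lists in the plot of list medians, -1.15. Of 36 tested 1 rose and 22 fell, and 2 and 21 on the second-day arrays. Gadd45g, a stress-induced growth arrest gene, stood at 0.85, 1.54 and 0.33 against 4.83 and 4.81, a change of -3.92 ± 0.35 (SE). Klf4, a FOXO target that arrests pre-B cells, stood at 1.55, 0.53 and 1.28 against 4.80 and 4.54. Btg2, an antiproliferative cofactor of mRNA decay, stood at 1.32, 2.48 and 1.11 against 5.43 and 5.49. Leukemia 713 was the highest mouse for Gadd45g and Btg2 and the lowest for Klf4, and none reached wt.

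Tob1, related to Btg2, was seen on 3 of 6 leukemia arrays and changed by -3.23 with the others at the dimmest level above background. S1pr1, the receptor that guides exit from bone marrow, stood at -2.44, 0.87 and -3.67 against 2.78 and 2.86, and Trib2, a scaffold of C/EBP degradation, at -2.50, 0.46 and -2.08 against 2.61 and 2.31. In both genes leukemia 713 lay between wt and the other leukemias. Leukemia 713 was the highest mouse in 27 of the 36 genes, against 37.7% of all genes.

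Of 32 NF-kB subunits and feedback genes 1 rose and 15 fell (median -0.66, or -0.09 when centred on array medians). Nfkbid, an atypical inhibitor in the nucleus, stood at 0.18, -0.33 and -0.34 against 3.92 and 3.93, a change of -4.09 ± 0.19 (SE) with an adjusted p of 0.00021 by limma. Tnfaip3, the A20 feedback inhibitor, stood at 0.32, 0.15 and 1.38 against 4.36 and 4.16, and Nfkbia, the main inhibitor of NF-kB, at 4.04, 5.15 and 4.73 against 7.20 and 7.28. All 3 were lower in each leukemia. Cd40, a receptor that activates the pathway, was seen on 3 of 6 leukemia arrays and changed by -4.10 with the others at the dimmest level above background. Bcl3, a nuclear cofactor, changed by -3.17 ± 1.02.

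Feedback regulators of MAP kinases split 6 higher and 8 lower of 24. Dusp1, an immediate-early phosphatase, stood at -1.82, -0.50 and -0.99 against 1.82 and 1.82, and Dusp10, which acts on JNK and p38, changed by -3.15 ± 0.39 (SE). Errfi1, which restrains EGF receptors, rose by 2.03 ± 0.28, and Spry1, an inhibitor of RAS activation, by 1.93 ± 0.49.

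At the cell surface, all 7 Gimap genes tested rose. These neighbouring genes encode GTPases that support lymphocyte survival, and 6 of 7 passed on the second-day arrays. Gimap4 stood at 2.92, 3.64 and 2.97 against -0.85 and -0.29, a change of 3.75 ± 0.30 (SE), Gimap7 rose by 2.32 ± 0.31 and Gimap3 by 2.25 ± 0.38. Gimap5, whose loss shortens lymphocyte life, stood at 3.63, 4.84 and 3.53 against 2.03 and 2.0, highest in 713. The smallest rises were those of Gimap1, 0.73 ± 0.17, Gimap6, 0.73 ± 0.15, and Gimap9, 0.79 ± 0.20, of which Gimap6 did not pass on the second-day arrays. T cells also express Gimap genes, and the T cell markers above rose as well; their part was not tested.

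Of 27 Ifitm, S100 and annexin genes 15 rose and 3 fell (median 0.87), and 11 were higher on the second-day arrays. Ifitm3, a membrane protein that serves as a PI3 kinase scaffold in B cells, stood at 2.32, 3.22 and 3.42 against -0.36 and -0.19, a change of 3.26 ± 0.33 (SE). Ifitm2 rose by 3.56 ± 0.30, with 4.32 on the first-day arrays and 2.80 on the second-day arrays. Anxa1, a phospholipid-binding regulator of inflammation, rose by 2.14 ± 0.16. S100a6, a calcium-binding protein, stood at 5.01, 8.15 and 3.23 against 2.58 and 2.93. It was far highest in leukemia 713 and close to wt in 760, and did not pass (adjusted p = 0.13 by limma).

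Cytokine receptors split 13 higher and 3 lower of 38, with a median whose sign depended on the scaling. Il1r2, a decoy for interleukin 1, was at least 27.4-fold higher, since it was well above background on all leukemia arrays and on no wt array. On the same basis Il18r1 was at least 9.15-fold and Il2rb, the shared beta chain of the receptors for interleukins 2 and 15, at least 7.41-fold higher. Il2rb is also expressed by T and NK cells. These bounds set the leukemia mean against the dimmest level called above background on the wt arrays.

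Of 32 chemokine receptors and homing genes 4 rose and 14 fell (median -0.77), and 4 and 12 on the second-day arrays. Ccr9, which guides progenitors to thymus and gut, stood at -2.43, -1.94 and -4.15 against 1.61 and 1.40, a change of -4.35 ± 0.64 (SE). Ccr7, which guides lymphocytes into lymph nodes, stood at 1.26, 1.81 and 1.90 against 3.28 and 2.81 and changed by -1.39 ± 0.25. Rgs2, a brake on G protein signals, changed by -3.21 ± 0.31.

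Integrins and adhesion genes split 10 higher and 14 lower of 40, with a scaling-dependent median. Itgal, a chain of LFA-1, stood at 2.15, 2.93 and 1.73 against 0.53 and 0.38 and rose by 1.82 ± 0.35 (SE). Cdh17, a cadherin of early B cells and gut, was at least 33.4-fold higher, with mouse means of 0.92, 2.57 and -0.63 and no wt array above background. Leukemia 713 was the highest mouse in 23 of the 40 genes, against 37.7% of all genes.

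Genes of the Notch pathway and T lineage factors split 11 higher and 8 lower of 26, and the sign of their median depended on the scaling. Deltex genes, which encode ubiquitin ligases of the Notch pathway, went opposite ways. Dtx4 stood at 1.78, 3.68 and 2.86 against -1.15 and -1.51, a change of 4.11 ± 0.53 (SE), and Dtx1 at -2.14, 1.49 and -3.40 against 3.92 and 3.64, a change of -5.13 ± 1.37. Dtx1 was lower in every leukemia, with 713 nearest to wt. Tal1, a bHLH factor silent in most lymphoid cells, rose by 3.95 ± 0.32, having been seen on all leukemia arrays and 1 wt array.

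Tcf7, a factor of early T cells, stood at -0.70, -0.24 and 1.01 against -3.16 and -3.87, and Thy1, a surface marker of T cells, at 2.34, 2.13 and 4.95 against -0.72 and -0.56. Both were highest in leukemia 760, which also had the highest summed T cell markers, 47.7 and 63.0 against 12.9 to 22 in the others. Thy1 is itself among the 12 T cell markers, so that sum partly restates its level. Over the 12 markers the median change of leukemia 760, 1.07, was nonetheless the lowest, with 1.18 in 686 and 1.68 in 713. WNT receptors and targets split 7 higher and 12 lower of 27. Tcf7l1, a repressor of WNT targets, stood at 1.48, 0.04 and 1.34 against -3.60 and -3.73, a rise of 4.62 ± 0.44. Nkd1, a feedback inhibitor, was at least 6.41-fold higher, seen on 5 of 6 leukemia arrays. The ligand Wnt10a was at least 53.5-fold lower, seen on both wt arrays and on no leukemia array.

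Chromatin genes split 20 higher and 21 lower of 61. Dnmt3b, a de novo DNA methyltransferase, stood at 1.15, 0.14 and 1.86 against -1.25 and -1.55, a rise of 2.45 ± 0.48 (SE), and was lowest of the leukemias in 713. Pcgf6, of a variant Polycomb complex, rose by 2.25 ± 0.36, and Phf19, which guides Polycomb complex 2, by 1.62 ± 0.21. Ezh2, the methyltransferase of that complex, stood at 3.03, 2.81 and 3.19 against 3.30 and 3.30 and did not pass (adjusted p = 0.15 by limma). Cbx7, a reader in canonical Polycomb complex 1, changed by -2.44 ± 0.36. Kmt2c, an enhancer histone methyltransferase and tumour suppressor, changed by -1.74 ± 0.18, and all 6 of its probes passed as lower. Kdm5b, a histone demethylase, was seen on 1 of 6 leukemia arrays and changed by -3.79 with the others at the dimmest level above background.

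Lysosome and autophagy genes split 13 higher and 10 lower of 49. Gusb, the lysosomal glucuronidase, rose by 1.86 ± 0.14 (SE), while Ctsl, a cathepsin, was seen on 3 of 6 leukemia arrays and changed by -5.0 with the others at the dimmest level above background. Of 21 MHC class I and peptide loading genes 4 rose and 6 fell. The endoplasmic reticulum chaperones Canx and Pdia3 rose by 1.77 ± 0.12 and 1.92 ± 0.12. B2m, the light chain of class I molecules, stood at 6.59, 7.02 and 7.11 against 6.83 and 6.99 and did not pass (adjusted p = 0.99 by limma), although 1 of its 2 further probes was lower.

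Several of the 20 largest rises and the 20 largest falls, among genes detected on all 8 arrays and moved at least 2-fold in every mouse, are of no list above. Sema4a, a semaphorin that acts on immune cells, stood at 2.24, 3.28 and 3.23 against -2.36 and -2.12, a change of 5.16 ± 0.36 (SE). Pglyrp2, an enzyme that cleaves bacterial peptidoglycan, stood at 2.61, 2.85 and 2.41 against -2.41 and -2.48, a change of 5.07 ± 0.17. Adgrg3, an adhesion G protein receptor of leukocytes, rose by 4.89 ± 0.25, and Gria2, a glutamate receptor subunit known from neurons, by 5.09 ± 0.33. Maoa, which oxidises serotonin and noradrenaline, rose by 4.76 ± 0.48, and Smyd2, a lysine methyltransferase, by 4.66 ± 0.28. The selection fixed the direction of these 6 in each mouse.

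The falls of that size included Rapgefl1, a homologue of RAP exchange factors, at -1.95, -1.92 and -3.0 against 3.30 and 3.16, a change of -5.52 ± 0.35 (SE). Ets2, an ETS factor downstream of RAS, changed by -4.69 ± 0.49, and Hdac5, a class IIa histone deacetylase, by -4.44 ± 0.18. Hvcn1, the proton channel that supports BCR signalling, stood at -0.29, 1.35 and 1.43 against 5.27 and 5.02, lowest in 686. Cox6a2, the muscle form of a respiratory chain subunit, changed by -4.51 ± 0.44, against the direction of the other subunits.

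Some genes were seen on 1 side alone: 98 of the called genes were detected on every leukemia array and no wt array, and 640 the reverse. These counts are not on equal terms, because fewer probes were detected on the first-day leukemia arrays. The share well above background was 35.7% to 42.9% there and 48.75% to 52.2% on the second-day leukemia arrays. On the wt arrays it was 51.3% and 52.4%. Dyrk4, a dual-specificity kinase, was at least 32.5-fold higher, Sema6d, a semaphorin, at least 32.3-fold, and Gtsf1, a germ line factor of the piRNA pathway, at least 30.7-fold. The mouse means were 1.14, 0.84 and 0.76 for Dyrk4, 2.03, -0.09 and 0.77 for Sema6d and 1.21, 1.13 and 0.16 for Gtsf1. Lower by bound were Reln, the extracellular matrix protein reelin, at least 31-fold, and Armcx2, an X-linked armadillo repeat gene, at least 31.5-fold.

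Some calls rested on single arrays or on the scaling. Of the called genes named here, 23 no longer passed without wt replicate 1 and 19 without wt replicate 2, all in the same direction as before. Without replicate 1 the change was -5.56 for Ikzf3, 2.22 for Cdk6, 1.99 for Ccnd2, -1.22 for Foxo1, -0.91 for Blnk and -2.10 for Pik3ap1. It was -3.68 for Trib2, -4.30 for Cd40, -3.87 for Pax5, 3.70 for Thy1, 2.17 for Spry1, -1.47 for Sat1 and 1.34 for Fignl1. For Gimap1, Gimap5, Gimap6 and Gimap9 it was 0.65, 2.0, 0.71 and 0.74. Dnmt3b lost its call without wt replicate 2 alone, at 2.29. These values differ little from the full ones, and a lone wt array is assumed to vary like the other groups.

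Leaving out a leukemia also ended calls. Without leukemia 686 the change did not pass for Lyn (-1.24), Bcl3 (-3.18), Dtx1 (-4.74), S1pr1 (-4.22) and Grb10 (4.67). Without 713 it did not pass for Lef1 (-1.77), and without 760 for Lyn (-1.01) and Grb10 (4.41). These genes lost their calls without either wt array too. Centring on array medians ended the calls of Ebf1, Rag2, Blnk, Lyn, Foxo1, Lef1, Ccr7, Rad52, Sat1 and Xpo6, and scaling to the detected probes those of Gimap1, Gimap6 and Gimap9. Slide as a random block ended 18 calls, including those of Ikzf3, Dtx1, S1pr1, Lef1, Lyn, Bcl3, Foxo1, Blnk, Ccnd2, Spry1, Sat1, Gimap9 and Lars2. Scan day as a block ended 7, those of Actb, Klf2, Bcl3, Ccnd2, Spry1, Gimap6 and Grb10. No named gene passed in opposite directions under any alternative tried.

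All 8492 called genes changed in the same direction in the 3 mice. The spread between mouse means enters the error of a call, so genes that differ among the leukemias are called less readily. The shared direction, and a lower share of differing genes among those called, are thus partly built into the calls. Of the called genes 859 (10.1%) differed among the leukemias by the F test over arrays, against 16.3% of all genes tested. This test reads the spread between the 2 arrays of a leukemia, not between animals, and that spread includes the difference between the scan days. With scan day as a block, 5314 of all genes (36.8%) and 2521 of the called genes (29.7%) differed, including every gene that did so without it. Leukemia 713 differed most often from both others: 46 genes moved at least 2-fold from wt in the direction opposite to both other leukemias in 713, 21 in 760 and 8 in 686. Examples are Bambi, a decoy receptor for TGF-beta, at 0.88, -3.0 and 0.86 against -1.01 and -1.05, and Dkk3, a secreted Dickkopf protein, at -5.47, -0.37 and -5.91 against -2.54 and -2.98 and seen on 2 of 6 leukemia arrays. Ptpn14, a phosphatase of the Hippo pathway, stood at -0.73, -5.73 and -5.84 against -3.23 and -3.32, high in 686 alone and seen on 2 of 6 leukemia arrays.

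By list, the median change of the lymphoid transcription factors was nearest to wt in leukemia 713, with values of -1.23, -0.66 and -1.27 in 686, 713 and 760. Of the 13 that differed among the leukemias, 11 were highest in 713, against 1132 of 2359 such genes (48%) over all genes tested. For pre-BCR and BCR signalling 21 genes differed, 14 of them highest in 713, and for quiescence genes 16 differed, 13 of them highest in 713. Of 13 markers of mature and plasma B cells, 10 were highest in 713, and 8 of 11 macrophage markers were as well. All 9 neutrophil markers tested were highest in 686. Over all genes tested 37.7% were highest in 713, and 4132 of 14455 in 686. The part of admixed cells in these differences was not tested.

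Genes were placed on chromosomes by the probes' mm9 coordinates, and 9489 placed genes were detected on all 8 arrays. In leukemia 713 the 379 genes of chromosome 15 stood above their level in the other leukemias by a median of 0.40, or 0.43 on replicate 1 and 0.39 on replicate 2 arrays, against -0.01 over all genes. Of these 379 genes, 277 (73.1%) were highest in 713, compared with 28.4% to 43.9% on the other chromosomes. Relative to wt cells and to each array's own median, chromosome 15 stood at 0.40 on both 713 arrays, at -0.01 and -0.04 on the 686 arrays and at -0.03 and -0.06 on the 760 arrays. No other chromosome exceeded 0.18 in either direction on any leukemia array. Myc lies on chromosome 15 and read lowest in leukemia 713, at 4.94, 4.04 and 5.05 in the 3 leukemias and 1.22 and 1.33 in wt cells. Its difference among the leukemias did not pass by limma's F test over arrays (adjusted p = 0.12). With scan day as a block the F test passed (adjusted p = 0.018).

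**Figure D4:**
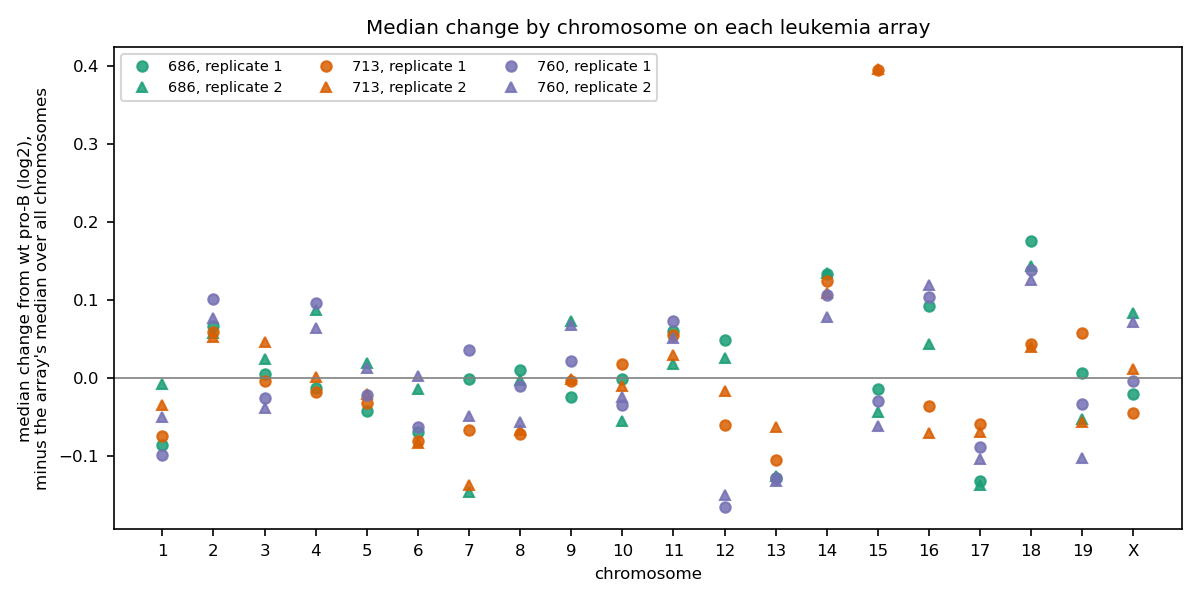
Median log2 change from the wt arrays of the genes on each chromosome, minus the array's median over all chromosomes (y axis), for both arrays of leukemias 686, 713 and 760 (colours, circles replicate 1, triangles replicate 2). Both arrays of 713 stand at 0.40 on chromosome 15, while all other points lie between -0.17 and 0.18.

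The neighbours of Ikzf1 on chromosome 11 did not share its fall. Probes of Fignl1, Ddc and Grb10 lie next to it in mm9, in that order. Fignl1, an AAA ATPase of recombination, stood at 3.45, 2.50 and 3.54 against 1.69 and 1.82 and rose by 1.41 ± 0.33 (SE). Ddc, the decarboxylase that makes dopamine and serotonin, read 3.42, 3.15, 0.49, -3.87, 4.28 and 3.60 on the leukemia arrays (686, 713 and 760, replicates 1 and 2 of each in turn) against 0.64 and 0.91, above wt in 686 and 760 and below it on both arrays of 713, and did not pass. Grb10, an imprinted adaptor that restrains growth factor receptors, read 2.63, 2.25, -0.29, -4.42, 3.26 and 2.66 against -4.51 and -4.22, with no wt array above background, and was at least 34.8-fold higher. For both genes the replicate 2 array of 713 read far below replicate 1, and Grb10 did not pass on the second-day arrays. As given above, its call was also lost without leukemia 686 or 760.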

How the data were processed

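Total RNA of 10 samples was measured on one-colour Agilent arrays, 8 of which are compared here. Each deposited scanner file holds intensity values, written by Feature Extraction 10.5.1.1 per the file headers (9.1 in the submitters' processing notes). This processed intensity had been background-subtracted and detrended within each array by the authors' scanner software. The authors' deposited matrix holds log2 values, whose background correction and centring are unknown, and served as an alternative. The file headers name mm9 as the build of the probe positions.

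Control spots and outlier spots were left out, spots of a probe were averaged, and log2 signal minus each array's 75th percentile was used. A probe stayed in (22300 did) if every array of some group detected it well above background, and a gene's brightest probe represented it. Precision is limited by the number of arrays. The contrast was fitted with limma 3.58.1 (R 4.3.3, with the data.table package at version 1.17.8) over 7 samples, 3 of them mouse means and the others single pro-B arrays, with 4 residual degrees of freedom, which leaves the spread between mice only partly measured. Benjamini-Hochberg adjustment ran over all 14455 genes. Where no array of a group was above background, a bound is given, against the dimmest level called above background. The fit was tested on simulated data with independent noise, which held no shared effect of slide or scan day. Genes were named by size of change, by bound, by opposite change in 1 leukemia, and from each list by the 3 largest changes per direction or by a described role. Immunoglobulin and T cell receptor segments were not named, and some genes that met these rules are not reported here. The members, lists and rules were chosen with earlier results of these data known. Gene symbols and promoters came from RefSeq tables of GRCm38.p6. Another probe passed in the direction opposite to the gene's call for 398 of 3017 called genes with several probes, in 105 genes with both probes detected on all 8 arrays.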

Additional observations from a re-analysis of the deposited data

Results flagged for a closer look

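The change from wt cells differed among the 3 leukemias for 54 named genes, by the limma F test over arrays; the number after each gene is its adjusted p. Over all genes tested 16.3% passed this test, which reads the spread between the 2 arrays of a leukemia and not between animals. With scan day as a block 36.8% passed, and the 54 named genes all did. Bambi, Ddc, Dkk3 and Ptpn14 met the naming rule of opposite change in 1 leukemia, so their passing was partly built in. The count of 54 is therefore not to be read against the shares over all genes.

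The transcription factors lower than wt in every leukemia and least so in 713 were Ikzf3 (0.00184), Spib (0.0243), Tcf3 (0.00659) and E2f2 (0.00421). BCR pathway genes with that order were Syk (0.0111), Lyn (0.0055) and Pik3ap1 (0.00301). Quiescence genes were Gadd45g (0.0155), S1pr1 (0.000336) and Trib2 (0.00196). Bcl3 (0.000342), Nfkbia (0.00921) and Cd40 (0.00138) belong to the NF-kB list, and Dusp1 (0.00611) and Dusp10 (0.0295) to MAPK feedback. The others were Ccr9 (0.0101), Rgs2 (0.0399), Dtx1 (0.00154), Ctsl (0.00184), Sat1 (0.00501), Kdm5b (0.0418) and Cox6a2 (0.0185).

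Leukemia 713 was also the highest for 7 genes above wt in every leukemia. These were Bag3 (0.01), Cdh17 (0.0163), Dtx4 (0.0179), Gimap5 (0.00407), Il2rb (0.0282), Nkd1 (0.024) and S100a6 (0.000619). It was the single leukemia above wt for Dkk3 (0.00416) and Irf8 (0.00305). For Bambi (0.00416) it was the single one below, and for Ddc (0.0285) its mean was below wt while both others were above.

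Leukemia 760 was the highest for Ccnd2 (0.0222), Cdk6 (0.00187), Chek1 (0.0348), Dnmt3b (0.0127), Grb10 (0.0285) and Maoa (0.00545). It was so too for the T cell genes Lck (0.0271), Tcf7 (0.0107) and Thy1 (0.00234). Cd72 (0.000853), Hvcn1 (0.0211) and Lef1 (0.00318) were lower than wt in all leukemias and least so in 760.

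Leukemia 686 was the highest for Ccnd1 (0.0315), Errfi1 (0.0222), Psmg1 (0.0315), Gtsf1 (0.0129), Sema6d (0.0191), Tal1 (0.0433) and Tcf7l1 (0.00564). Klf4 (0.0187) was lower than wt in all and least so in 686, and Ptpn14 (0.000948) was above wt in 686 alone. Why the leukemias differed was not tested.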

How the results depend on the processing

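The count of higher genes, 4518, became 2680 with a 2-fold minimum, 2959 with scaling to the probes detected on all arrays and 2949 with slide as a random block. The count of lower genes, 3974, became 2282 with centring on array medians, 1737 over probes detected on all 8 arrays and 2287 with slide as a random block. Leaving out 1 mouse or array gave 2955 to 4907 higher and 2449 to 4435 lower genes; the lowest counts came without wt replicate 1, and without wt replicate 2 the lower genes numbered 2629. The replicate number as a block gave 4072 and 3463, and scan day as a block 3873 and 3445. Deviations of same-numbered leukemia arrays correlated at 0.443 to 0.633, those of leukemia and wt arrays at 0.0104 to 0.0183, so the numbers do not pair leukemias with wt cells. The second-day comparison, which was added after the data were seen, gave 4081 and 3900. Genes that differed among the leukemias numbered 2359, and 5314 with scan day as a block, also added later. The chromosome 15 value of leukemia 713, 0.411 relative to all chromosomes, was 0.353 after normexp and quantile normalization and 0.393 and 0.459 on its single replicates.

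Over 153 named genes and all settings, 3780 of 3945 results kept their direction and side of the threshold, 119 no longer passed, 28 came to pass and 18, passing in neither, changed sign. The causes were not tested. Slides and groups cannot be told apart, and signal near background limits the genes seen on 1 side alone.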
